A study of Mus musculus with 46 samples.

Results

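The genes described are 10 genes of inflammatory signalling and leukocyte adhesion, followed through the reprogramming of mouse fibroblasts: the adhesion molecules Sele and Vcam1, the chemokines Ccl2, Ccl5, Ccl7, Cxcl1, Cxcl5 and Cxcl12, the cytokine Il6 and the enzyme gene Ptgs2. These are 10 of the 37108 genes in the gene table, and they were listed by name around Sele, which was chosen by its D5 values, among the lowest with the Nanog fusion relative to native Nanog. The description as chemokine and adhesion genes covers 8 of them. Il6 is a cytokine, Ptgs2 encodes the prostaglandin-forming enzyme cyclooxygenase-2, and Cxcl12 is a chemokine that many stromal cells make at rest. Because D5 chose Sele, all D5 values are given as a description with no test. Among 16842 genes ranked by the D5 difference between the combinations, Sele was number 4 from the lowest at a log2 difference of -3.72, between Ifi44 at number 3 (-3.83) and Pde1a at number 5 (-3.59).

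In inflamed tissue, signals such as tumour necrosis factor, interleukin-1 and microbial products act through the transcription factor NF-kB, often together with AP-1, on the promoters of many of these genes. E-selectin (Sele) on activated endothelium slows passing leukocytes, VCAM-1 holds them through integrins, and chemokines direct them into the tissue: Ccl2, Ccl7 and Ccl5 attract mainly monocytes and lymphocytes, and Cxcl1 and Cxcl5 attract neutrophils. Fibroblasts are themselves a source of Ccl2, Ccl7, Cxcl1, Cxcl5, Il6 and prostaglandins when they are stimulated, while Sele is known mainly as an endothelial gene.

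The cells were OG2 mouse embryonic fibroblasts (MEF, taken at E13.5, with a GFP reporter driven by Oct4 regulatory sequence), infected with pMXs retroviruses for Oct4 together with either native Nanog (NanogWT) or NanogBiD, in which the N-terminal 70 amino acids of the BAF subunit SS18 are joined to Nanog (NanogN70 in the labels). Every time-course library therefore carries retroviral Oct4 and a Nanog gene, and no library with an empty vector was analysed here. Infected cells were collected on 8 days between D0 and D12 (D1, D3, D5, D7, D8 and D10 lie between), where D0 is the change to the reprogramming medium iCD3 after 2 rounds of infection, and the medium was later replaced by N2B27 with 2i and LIF, after about 7 days. Established NanogBiD and NanogWT iPSC (6 libraries each, from lines iPSC1 and iPSC2), 2 libraries of uninfected MEF and 1 of OG2 mouse embryonic stem cells (mES) were also sequenced, and these stem cells were kept without feeders in N2B27 with 2i and LIF.

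There were 2 libraries for each combination and day, except NanogBiD at D8 with 1, which gave 31 time-course libraries. The labels do not say whether same-day libraries came from separate cultures, so p-values measure the spread between these libraries, which may be technical. Levels are given as FPKM (fragments per kilobase of gene model and per unit of mapped reads, as the authors scaled them). The depth of each library relative to the others came from genes of low FPKM. Once scaled by that depth, low values were whole multiples of a gene-specific step, taken here as 1 read, for 8 of the 10 genes. Relative depth was 0.893 to 1.13 in the 20 libraries of D0 to D7 and 0.830 to 1.04 in the 5 NanogBiD libraries of D8 to D12, but 1.89 to 3.26 in the 6 NanogWT libraries of D8 to D12, so depth and combination cannot be told apart at D8, D10 and D12. In bulk libraries, fewer cells that express a gene and less RNA per cell cannot be told apart either.

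RefSeq (GRCm38.p6) promoter windows were used for 5 of the 10 genes, Sele, Cxcl1, Cxcl12, Il6 and Ptgs2, and those of the other 5 were not analysed here. The 250 bases before the start are shown for the 3 of them that followed different courses below, Sele (chr1:164047984-164048233), Cxcl1 (chr5:90890995-90891244) and Ptgs2 (chr1:150099781-150100030), all on the plus strand, with matched motif letters in capitals.
Sele: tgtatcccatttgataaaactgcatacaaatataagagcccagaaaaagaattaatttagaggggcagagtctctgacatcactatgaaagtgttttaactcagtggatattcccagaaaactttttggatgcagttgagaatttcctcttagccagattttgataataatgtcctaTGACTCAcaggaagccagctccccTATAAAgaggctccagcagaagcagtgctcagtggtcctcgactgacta
Cxcl1: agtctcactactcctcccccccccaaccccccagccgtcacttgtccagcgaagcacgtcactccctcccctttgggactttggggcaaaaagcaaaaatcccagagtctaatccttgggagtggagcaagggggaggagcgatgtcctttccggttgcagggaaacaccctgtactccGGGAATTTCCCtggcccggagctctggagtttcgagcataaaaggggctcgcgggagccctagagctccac
Ptgs2: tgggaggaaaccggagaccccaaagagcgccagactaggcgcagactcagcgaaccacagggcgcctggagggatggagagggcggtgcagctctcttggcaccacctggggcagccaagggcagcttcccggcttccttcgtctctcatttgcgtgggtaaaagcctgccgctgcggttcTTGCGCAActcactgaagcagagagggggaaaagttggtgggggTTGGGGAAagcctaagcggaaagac
In the Sele window the capitals mark the AP-1 letters TGANTCA, 73 to 67 bases before the start, and the TATA box TATAAA, 49 to 44 bases before it. In Cxcl1 they mark the NF-kB consensus, matched on both strands in overlapping positions from 71 to 61 bases before the start. In Ptgs2 they mark matches of the C/EBP letters TTNNGNAA, 69 to 62 and 25 to 18 bases before the start. The Il6 window (chr5:30012864-30013113) held an NF-kB match 44 to 35 bases before the start and 1 match each of AP-1 and C/EBP, and the Cxcl12 window (chr6:117168285-117168534) held none of these letters. The Sele window lies within the annotated gene span, which begins upstream of this start. All motifs were searched on both strands except the TATA box, which was searched on the strand of the gene. Of all 32851 RefSeq windows of this length, 3.9% held the NF-kB consensus, 6.75% AP-1, 7.59% TATAAA and 36.8% C/EBP. These are matches of letters and show no binding.

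Sele and the other genes took different courses. Sele was close to 0 in MEF and at D0, stood at its highest level 1 day later, and declined from there in both combinations, with lower levels in NanogBiD on each day from D1. Vcam1, Ccl2, Ccl7 and Cxcl5 were high at D0 and lower at D1. With NanogWT their levels were higher again from D8 on, and with NanogBiD they were below their D1 range at D10 and D12. Ptgs2 and Cxcl12 were lower with NanogBiD from D1 to D12. Ccl5 and Il6 stayed near 0 throughout. The panels of all 10 genes show these courses library by library.

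**Figure D1:**
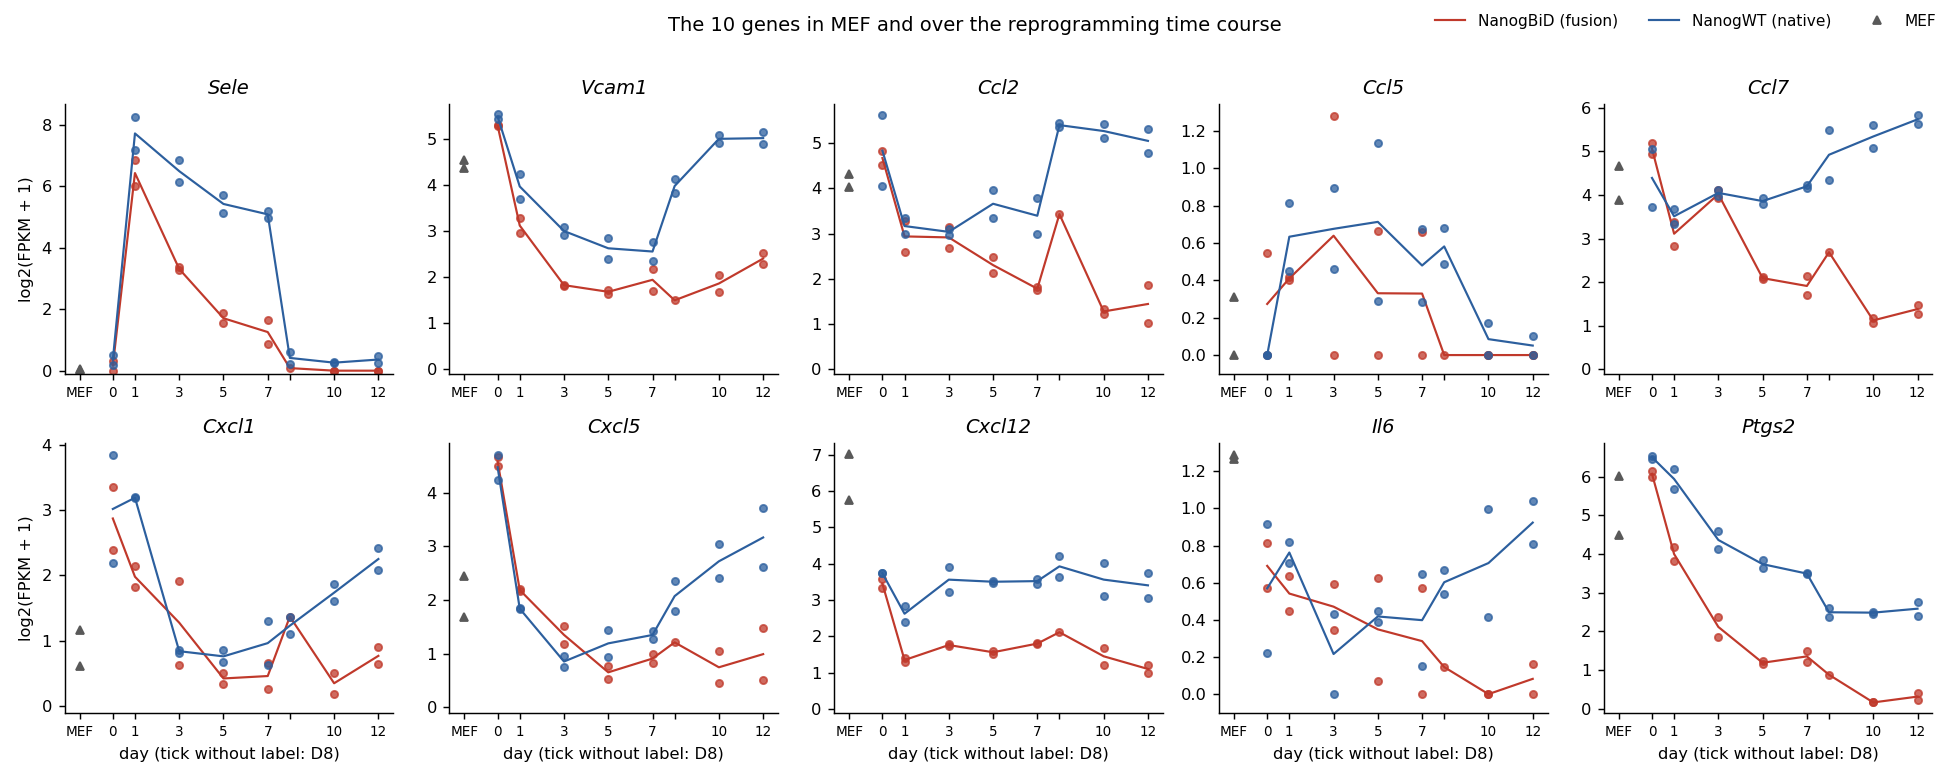
Each panel plots 1 gene, with the day of reprogramming on the x axis (uninfected MEF at the left) and log2(FPKM + 1) on the y axis, whose range differs between panels. Points are single libraries, lines join the group means, red is NanogBiD, blue is NanogWT and grey triangles are MEF. Sele reached 302 FPKM in 1 NanogWT library at D1, and at D12 the NanogWT points of Vcam1, Ccl2, Ccl7, Cxcl1, Cxcl5, Cxcl12 and Ptgs2 lie above the NanogBiD points.

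The combinations were compared with limma on log2(FPKM + 1) over all 31 time-course libraries, with p-values adjusted after Benjamini-Hochberg. Calls required both an adjusted p below 0.05 and a change of 2-fold or more, that is 1 on the log2 scale. Of the 10 genes, 9 passed the filter of 1 FPKM in 2 libraries; Il6 did not. At D0 limma called 0 of the 9, against 0.76% of all tested genes called, and 1 of them (Ptgs2) had an unadjusted p under 0.05. At D1, 3 were lower with NanogBiD (Sele, Cxcl12 and Ptgs2), against 0.962% of all tested genes called lower. At D3 it was 4, the same genes and Vcam1, against 2.45%. At D7 it was 5 (Sele, Cxcl12, Ptgs2, Ccl2 and Ccl7), against 4.65%. At D10 and again at D12 it was 7 (Vcam1, Ccl2, Ccl7, Cxcl1, Cxcl5, Cxcl12 and Ptgs2), against 12.3% and 9.97% of all tested genes. None of the 9 was called higher with NanogBiD on any of these days. In either direction, 1.33% of all tested genes were called at D1, 3.7% at D3, 10.4% at D7, 27.8% at D10 and 23.4% at D12. The genes were listed with earlier results of these data known, so these counts are a description of the list. A fit to the compared groups alone, with 2 residual degrees of freedom, called none of the 9 at D1 and at D3, and 4, 7 and 7 at D7, D10 and D12.

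**Figure D2:**
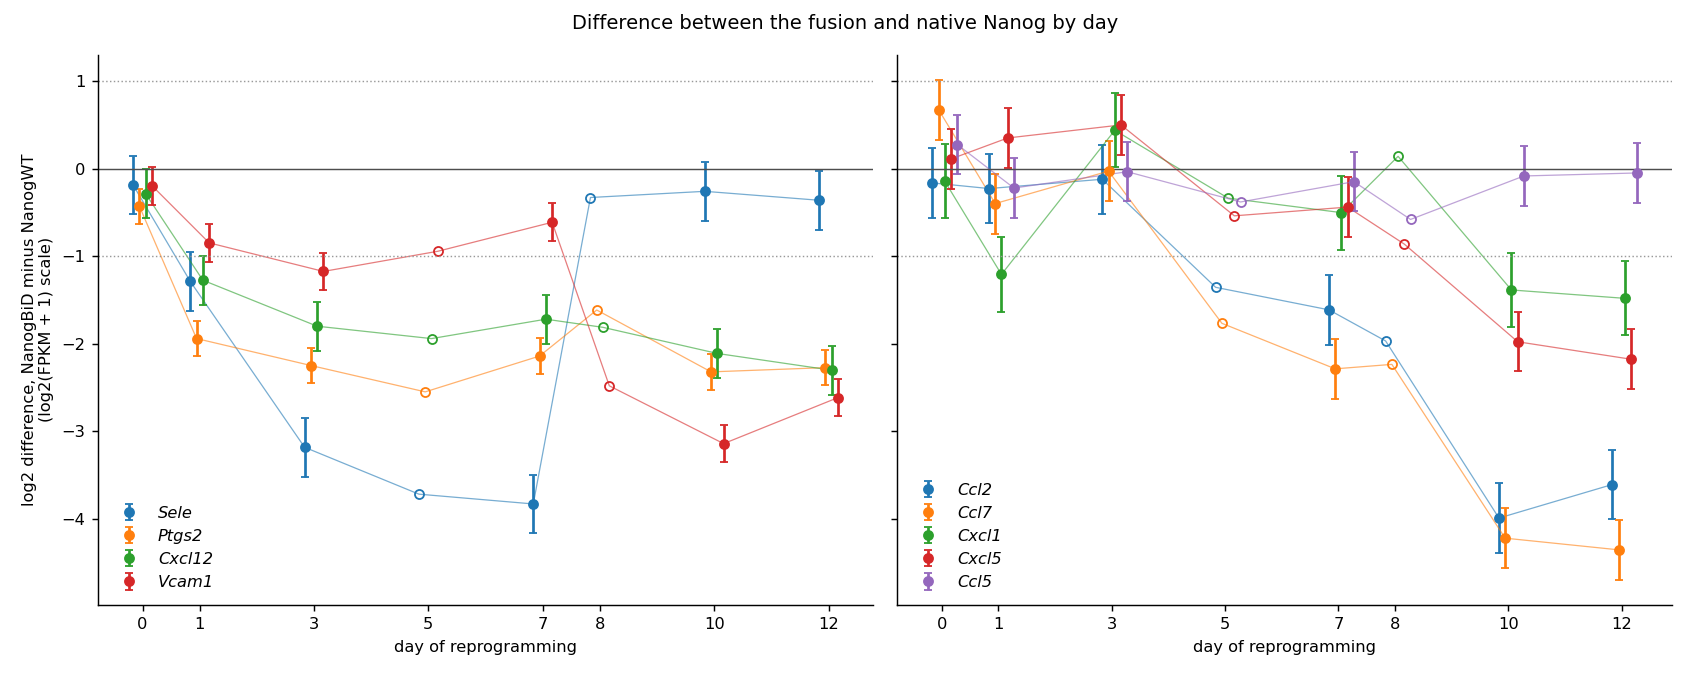
Each panel plots the log2 difference of NanogBiD minus NanogWT on the log2(FPKM + 1) scale against the day of reprogramming. Filled points with bars are the limma estimate and its standard error, open points at D5 and D8 are differences with no test, and dotted lines mark a log2 difference of 1 in either direction. Sele reached -3.83 at D7 and lay between -0.36 and -0.26 from D8 on, while Ccl2 and Ccl7 lay between -0.40 and 0.67 up to D3 and at -3.61 and -4.35 at D12.

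Sele (gene ID 20339, chromosome 1, 164039614 to 164058487) encodes E-selectin. It stood at 0.0161 and 0.0315 FPKM in the MEF libraries and at 0 in mES. At D0 it was at 0.257 and 0 FPKM with NanogBiD and at 0.432 and 0.140 with NanogWT. These values rest on 26 reads or fewer per library. At D1 the NanogBiD libraries stood at 115 and 62.5 FPKM and the NanogWT libraries at 302 and 144 FPKM. The highest NanogBiD library was below the lowest NanogWT library. The step from D0 to D1 was a log2 difference of 6.26 (SE 0.33, limma adjusted p = 4.09e-10) with NanogBiD and 7.36 (SE 0.33, adjusted p = 2.48e-11) with NanogWT.

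After D1, Sele fell. At D3 it stood at 8.58 and 9.23 FPKM with NanogBiD and at 114 and 69.0 with NanogWT. At D5 the values were 2.65 and 1.91 against 50.9 and 34.3, and at D7 they were 2.14 and 0.817 against 35.4 and 30.5. The groups did not overlap on any of these days. On the scale of mean FPKM, NanogWT was 2.51-fold above NanogBiD at D1, 10.3-fold at D3 and 22.3-fold at D7. The log2 differences were -1.29 at D1 (SE 0.33, limma adjusted p = 0.0387), -3.18 at D3 (adjusted p = 2.84e-06) and -3.83 at D7 (adjusted p = 6.63e-08). The D1 call was lost without NanogWT replicate 1 (-0.76, adjusted p = 0.535), without NanogBiD replicate 2 (-0.85, adjusted p = 0.353), and under both other scalings, the smaller pseudocount and no filter. The D3 and D7 calls held in each of these settings. The drop from D1 to D3 was -3.12 with NanogBiD (adjusted p = 2.25e-06) and -1.23 with NanogWT (adjusted p = 0.0202), and the latter was lost without NanogWT replicate 1 of D1 (-0.69, adjusted p = 0.351) or replicate 2 of D3 (-0.87, adjusted p = 0.251), with a pseudocount of 0.1 (adjusted p = 0.186) and with a common total (adjusted p = 0.0656).

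Between D7 and D8, Sele with NanogWT went from 35.4 and 30.5 FPKM to 0.526 and 0.164, a log2 difference of -4.67 (SE 0.33, limma adjusted p = 2.26e-08). This contrast was added after the values were seen. The medium was changed at about this time, and relative depth rose from 1.00 and 1.08 to 1.98 and 2.08 between these libraries, so day, medium and depth cannot be told apart here. At D8 the NanogBiD library stood at 0.0595 FPKM. At D10 and D12 the NanogWT libraries still held 0.186 to 0.393 FPKM, from 23 to 53 reads each, and all 4 NanogBiD libraries were at 0 reads. A count of 0 allows up to 3 reads, which are about 0.05 to 0.06 FPKM in those libraries. Against that floor, averaged over the group, NanogWT was higher by about 4-fold or more at D10 and about 5.5-fold or more at D12, counting error only. On the log2(FPKM + 1) scale the differences were -0.26 and -0.36 (adjusted p = 0.538 and 0.389), and they were called only with the pseudocount of 0.1 (-1.57 and -1.91). The order of the group means was thus NanogWT at D1, NanogWT at D3, NanogBiD at D1, NanogWT at D5, NanogWT at D7, then NanogBiD at D3, and in it the ranges of NanogWT at D3 and NanogBiD at D1 overlapped, as did those of NanogWT at D5 and D7.

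Vcam1 (gene ID 22329, chromosome 3, 116110020 to 116129688) encodes the integrin ligand VCAM-1, which fibroblasts carry as well as endothelium. It stood at 19.6 and 22.3 FPKM in MEF, at 37.5 and 38.5 at D0 with NanogBiD and at 41.8 and 45.6 with NanogWT. It fell to 6.77 and 8.66 FPKM at D1 with NanogBiD and to 11.9 and 17.9 with NanogWT, log2 differences of -2.17 (SE 0.22, limma adjusted p = 5.11e-07) and -1.52 (adjusted p = 3.19e-05). At D3 it stood at 2.57 and 2.50 FPKM against 6.52 and 7.47, a log2 difference between the combinations of -1.17 (SE 0.22, adjusted p = 0.0011). The groups did not overlap on any day from D0 to D12, but up to D7 only the D3 difference was called.

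With NanogWT, Vcam1 then rose from 4.09 and 5.76 FPKM at D7 to 13.1 and 16.5 at D8, 29.1 and 32.9 at D10 and 28.4 and 34.4 at D12. With NanogBiD it stood at 2.24 and 3.53 at D7, 1.82 at D8, 3.09 and 2.21 at D10 and 3.83 and 4.76 at D12. The NanogWT libraries of D10 and D12 thus stood above both MEF libraries, and every NanogBiD library from D3 on stood at 4.76 FPKM or less. The rise from D7 to D12 with NanogWT was 2.46 (SE 0.22, limma adjusted p = 5.79e-08), and the combinations differed by -3.14 at D10 (adjusted p = 8.77e-10) and -2.61 at D12 (adjusted p = 8.86e-09). An annotated antisense gene, Gm43109, overlaps Vcam1, and the sources used here do not state whether counting used strand.

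Ccl2 and Ccl7 (gene IDs 20296 and 20306) encode monocyte-attracting chemokines and lie 8259 bases apart on chromosome 11, at 82035577 to 82037452 and 82045712 to 82047525, with no protein-coding gene between them. Ccl2 stood at 15.4 and 18.8 FPKM in MEF, at 27.1 and 22.0 at D0 with NanogBiD and at 48.3 and 15.5 with NanogWT. Ccl7 stood at 13.8 and 24.5 in MEF, at 35.6 and 29.6 at D0 with NanogBiD and at 32.2 and 12.2 with NanogWT. The NanogWT replicates of D0 were far apart for both genes, and the combinations overlapped. An annotated gene on the opposite strand, Gm17268, overlaps Ccl2.

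At D1 and D3 the groups overlapped for both genes. Ccl2 ranged from 5.00 to 9.14 FPKM over the 8 libraries, below both MEF libraries. Ccl7 ranged from 6.15 to 11.8 FPKM at D1 and from 14.2 to 16.4 at D3, where it lay between the 2 MEF libraries. The combinations parted later. At D7 Ccl2 stood at 2.50 and 2.37 FPKM with NanogBiD and at 6.97 and 12.8 with NanogWT, a log2 difference of -1.61 (SE 0.40, limma adjusted p = 0.00444) that was lost without NanogWT replicate 2 (-1.21, adjusted p = 0.0753). Ccl7 stood at 2.24 and 3.38 against 17.7 and 17.0, a difference of -2.29 (SE 0.34, adjusted p = 4.54e-05). With NanogBiD, Ccl7 had fallen from 14.2 and 16.2 FPKM at D3, by 2.10 on the log2 scale (adjusted p = 0.000229), whereas with NanogWT its step from D3 to D7 was 0.15 (adjusted p = 0.999).

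From D8 on, Ccl2 and Ccl7 had the highest mean FPKM of the 10 genes with NanogWT. Ccl2 stood at 42.2 and 40.0 FPKM at D8, 41.8 and 33.6 at D10 and 38.6 and 26.6 at D12, and the NanogBiD libraries stood at 9.76, at 1.34 and 1.51, and at 2.65 and 1.02. Ccl7 stood at 44.1 and 19.4, 47.3 and 33.0, and 56.2 and 48.5 FPKM with NanogWT, and at 5.44, 1.26 and 1.10, and 1.43 and 1.80 with NanogBiD. At D12 the mean FPKM of NanogWT was 17.8-fold that of NanogBiD for Ccl2 and 32.4-fold for Ccl7. The log2 differences at D12 were -3.61 (SE 0.40, limma adjusted p = 3.72e-07) and -4.35 (SE 0.34, adjusted p = 4.89e-09). With NanogWT, Ccl2 rose from D7 to D8 by a log2 difference of 2.00 (adjusted p = 0.00118, a contrast added after the values were seen). For Ccl7 the same step was 0.72 (adjusted p = 0.16), and its replicates at D8 were far apart; without NanogWT replicate 2 of D8 it was 1.30 (adjusted p = 0.026).

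Ccl5 (gene ID 20304, chromosome 11, 83525778 to 83530518), which encodes RANTES, an attractant of T cells and monocytes, ranged from 0 to 1.42 FPKM over the 31 time-course libraries, which is 13 reads or fewer. It was at 0 in 13 of those libraries, and the ranges of the combinations overlapped at D0, D3, D5, D7, D10 and D12. No comparison of the time course called it, and a difference was not detectable at this depth.

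Cxcl1 and Cxcl5 (gene IDs 14825 and 20311) encode neutrophil-attracting chemokines and lie on chromosome 5 at 90891245 to 90893121 and 90759298 to 90761625, a gap of 129619 bases with 4 protein-coding genes between. Cxcl5 stood at 4.44 and 2.2 FPKM in MEF, at 24.3 and 21.8 at D0 with NanogBiD and at 25.2 and 18.0 with NanogWT. It fell at D1 to 3.62 and 3.50 with NanogBiD and to 2.60 and 2.56 with NanogWT, log2 differences of -2.40 (SE 0.34, limma adjusted p = 3.2e-05) and -2.64 (adjusted p = 1.03e-05). At D7 all 4 libraries stood between 0.780 and 1.69 FPKM. With NanogWT, Cxcl5 then rose to 7.23 and 4.30 FPKM at D10 and to 12.2 and 5.10 at D12, and with NanogBiD it stood at 1.06 and 0.368 and at 1.79 and 0.416. The D12 difference was -2.18 (SE 0.34, adjusted p = 2.51e-05).

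Cxcl1 stood at 1.24 and 0.536 FPKM in MEF, at 9.22 and 4.24 at D0 with NanogBiD and at 13.3 and 3.58 with NanogWT. At D1 it stood at 3.42 and 2.52 against 8.17 and 8.06 FPKM, a log2 difference of -1.21 that limma did not call (SE 0.42, adjusted p = 0.157). At D12 it stood at 0.558 and 0.865 against 3.25 and 4.33 FPKM, a difference of -1.48 (SE 0.42, adjusted p = 0.00663). That call was lost without NanogBiD replicate 1 (-1.35, adjusted p = 0.0508) or NanogWT replicate 2 (-1.32, adjusted p = 0.0526), and the D10 call (-1.39, adjusted p = 0.00918) was lost without NanogWT replicate 1 (-1.25, adjusted p = 0.0652) or NanogBiD replicate 2 (-1.23, adjusted p = 0.0664). Low read numbers go with these values, 2 to 12 reads per NanogBiD library at D10 and D12.

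Cxcl12 (gene ID 20315, chromosome 6, 117168535 to 117181368) encodes the ligand of the receptor Cxcr4 that retains stem cells and lymphocytes in their niches. It was highest in MEF, at 128 and 53.4 FPKM. At D0 it stood at 9.02 and 10.9 with NanogBiD and at 12.4 and 12.3 with NanogWT, and at D1 at 1.43 and 1.67 against 6.20 and 4.27. At D3 the NanogWT libraries were back at 14.0 and 8.30 FPKM, and the NanogBiD libraries stood at 2.47 and 2.32. From D3 to D12 every NanogWT library stood at 7.35 FPKM or more and every NanogBiD library at 3.33 or less. The log2 differences were -1.27 at D1 (SE 0.28, limma adjusted p = 0.0146), -1.80 at D3 (adjusted p = 0.000227), -1.72 at D7 (adjusted p = 0.000118) and -2.30 at D12 (adjusted p = 1.38e-06). The D1 call was lost without NanogBiD replicate 1 (adjusted p = 0.139), NanogBiD replicate 2 (adjusted p = 0.06) or NanogWT replicate 1 (adjusted p = 0.201), and the calls at D3, D7, D10 and D12 held without each library in turn. Between D1 and D3 Cxcl12 with NanogWT went up by a log2 difference of 0.94 (adjusted p = 0.0344), under the fold limit. It was called with a pseudocount of 0.1 (1.05, adjusted p = 0.0404), with a common total (1.06, adjusted p = 0.0236), without NanogWT replicate 1 of D1 (1.16, adjusted p = 0.0466) and without NanogWT replicate 2 of D3 (1.28, adjusted p = 0.0197).

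Il6 (gene ID 16193, chromosome 5, 30013114 to 30019975), the cytokine interleukin-6, stood at 1.44 and 1.40 FPKM in MEF and between 0 and 1.06 in the time course, 44 reads or fewer per library. At D12 it was at 0 and 0.121 FPKM with NanogBiD and at 0.748 and 1.06 with NanogWT, and at D10 it was at 0 in both NanogBiD libraries and at 0.994 and 0.334 with NanogWT. The groups did not overlap at D10 and D12. In the fit with no filter the D12 difference was -0.84 (SE 0.25, limma adjusted p = 0.0164) and thus under the fold limit.

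Ptgs2 (gene ID 19225, chromosome 1, 150100031 to 150108234) encodes cyclooxygenase-2, the inducible enzyme that starts prostaglandin synthesis. It stood at 21.4 and 63.4 FPKM in MEF, at 69.7 and 63.0 at D0 with NanogBiD and at 87.3 and 92.1 with NanogWT. At D1 it stood at 13.2 and 17.0 against 50.7 and 71.9, at D3 at 2.62 and 4.18 against 16.5 and 23.3, and at D5 at 1.35 and 1.22 against 13.3 and 11.4. At D7 it stood at 1.31 and 1.83 against 10.1 and 10.4, and at D12 at 0.324 and 0.170 against 4.32 and 5.80. Both combinations thus declined, and the groups did not overlap on any day. The log2 difference was -0.43 at D0 (SE 0.20, limma adjusted p = 0.305), -1.94 at D1 (adjusted p = 1.09e-05), -2.25 at D3 (adjusted p = 4.19e-07), -2.14 at D7 (adjusted p = 1.81e-07) and -2.27 at D12 (adjusted p = 2.32e-08). Mean FPKM with NanogWT was 4.06-fold that of NanogBiD at D1, 6.54-fold at D7 and 20.5-fold at D12.

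The change of the difference between the combinations since D0 (the interaction) was tested in the same model. At D7 it was called for 4 of the 9 genes, each lower with NanogBiD: Sele (-3.64, SE 0.47, limma adjusted p = 2.84e-05), Ccl7 (-2.96, adjusted p = 0.000291), Ptgs2 (-1.71, adjusted p = 0.000361) and Cxcl12 (-1.43, adjusted p = 0.0183). Of all tested genes 4.88% were called lower there, 5.2% higher and 10.1% in all. The Cxcl12 call was lost without NanogWT replicate 1 of D7 (-1.36, adjusted p = 0.0599) or NanogBiD replicate 2 of D0 (-1.31, adjusted p = 0.0729). For Ccl2 the D7 value was -1.45 (adjusted p = 0.0894), and without NanogWT replicate 1 of D0, where Ccl2 was at 48.3 FPKM, it was -2.24 (adjusted p = 0.00473). It was also called with a common total (-1.73, adjusted p = 0.0418) and with quantile normalization (-1.62, adjusted p = 0.0293). At D12, 6 genes were called lower, against 10.5% of all tested genes lower, 13.4% higher and 23.9% in all. They were Ccl7 (-5.02), Ccl2 (-3.44), Vcam1 (-2.42), Cxcl5 (-2.28), Cxcl12 (-2.01) and Ptgs2 (-1.84), with adjusted p from 2.36e-07 to 0.000985. For Cxcl1 the D12 value was -1.34 (limma adjusted p = 0.0881). It was called when replicate number entered the model as a block (adjusted p = 0.0466) and with quantile normalization (-1.47, adjusted p = 0.0459). Without NanogWT replicate 1 of D0 it was -2.16, and without NanogBiD replicate 2 of D0 it was -1.82.

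The steps within each combination were compared next. Over both directions, 8.85% of all tested genes were called with NanogBiD and 7.64% with NanogWT from D0 to D1, 5.12% and 4.54% from D1 to D3, 5.81% and 1.65% from D3 to D7, and 20% and 11.3% from D7 to D12. From D0 to D1, Sele alone among the 9 tested genes rose, in both combinations, against 5.06% of all tested genes higher with NanogBiD and 4.61% with NanogWT. With NanogBiD 6 fell (Vcam1, Ccl2, Ccl7, Cxcl5, Cxcl12 and Ptgs2), against 3.79% of all genes, and with NanogWT 4 fell (Vcam1, Ccl2, Cxcl5 and Cxcl12), against 3.03%. For Ptgs2 the step was -2.07 with NanogBiD (SE 0.20, limma adjusted p = 3.94e-07) and -0.56 with NanogWT (adjusted p = 0.0552). The Ccl2 falls were lost without NanogBiD replicate 1 of D1 (-1.38, adjusted p = 0.066), NanogWT replicate 1 of D0 (-0.88, adjusted p = 0.113) or NanogWT replicate 1 of D1 (-1.49, adjusted p = 0.0587), and the Cxcl12 fall with NanogWT without its replicate 2 of D1 (-0.89, adjusted p = 0.0952). Without NanogWT replicate 2 of D0, Ccl7 was called as well (-1.54, adjusted p = 0.00259). From D1 to D3, 3 genes fell with NanogBiD (Sele, Vcam1 and Ptgs2), against 1.74%, and 3 fell with NanogWT (Sele, Cxcl1 and Ptgs2), against 1.2%. None rose, where 3.38% and 3.34% of all tested genes did. Cxcl1 with NanogWT went from 8.17 and 8.06 FPKM to 0.765 and 0.818, a log2 difference of -2.35 (SE 0.42, adjusted p = 0.000766). From D3 to D7, 2 fell with NanogBiD (Sele and Ccl7), against 1.25%, and 1 fell with NanogWT (Sele), against 0.178%. None rose, where 4.56% and 1.47% of all tested genes did. That last call (-1.40, adjusted p = 0.0216) was lost without NanogWT replicate 1 of D3 (adjusted p = 0.301), replicate 1 of D7 (adjusted p = 0.086) or replicate 2 of D7 (adjusted p = 0.203).

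From D7 to D12 with NanogWT 5 of the 9 rose (Vcam1, Ccl2, Ccl7, Cxcl1 and Cxcl5), against 6.66% of all tested genes, and Sele fell, against 4.62%. With NanogBiD none rose, against 11.6% of all genes, and 2 fell (Sele and Ptgs2), against 8.37%. The rises with NanogWT were 1.65 for Ccl2 (SE 0.40, limma adjusted p = 0.0037), 1.53 for Ccl7 (adjusted p = 0.00203), 1.29 for Cxcl1 (adjusted p = 0.0308) and 1.82 for Cxcl5 (adjusted p = 0.000392), besides Vcam1 above. With no filter the Cxcl1 rise was not called (limma adjusted p = 0.0658). The Ccl2 rise was lost without NanogWT replicate 1 of D7 (1.26, adjusted p = 0.0719) or of D12 (1.39, adjusted p = 0.0564), and the Cxcl1 rise without NanogWT replicate 1 of D12 (1.45, adjusted p = 0.0686), replicate 2 of D12 (1.12, adjusted p = 0.158) or replicate 2 of D7 (0.96, adjusted p = 0.25). The Sele fall with NanogBiD (-1.26, adjusted p = 0.00476) was lost without its replicate 1 of D7 (-0.86, adjusted p = 0.0896), and the Ptgs2 fall (-1.04, adjusted p = 0.000313) without its replicate 2 of D7 (-0.89) or of D12 (-0.95), which were under the fold limit. From D7 to D12 with NanogWT, Ptgs2 was called lower with a pseudocount of 0.1 (-1.02, limma adjusted p = 0.00575) but not in the reported fit. In the step from D7 to D8 with NanogWT, 2 rose (Ccl2 and Vcam1), against 4% of all genes, and Sele fell, against 3.06%. Ptgs2 went from 10.1 and 10.4 FPKM to between 4.19 and 5.12 in that step, and the reported fit did not call it. It was called lower with a pseudocount of 0.1 (-1.13, adjusted p = 0.00467), a common total (-1.03, adjusted p = 0.00626) and quantile normalization (-1.08, adjusted p = 0.00145). Over both directions, 7.05% of all genes were called in that step.

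Uninfected MEF were compared with D0 in a fit of 33 libraries, in which all 10 genes were tested. Il6 passed the filter of this fit only through the MEF libraries, so lower at D0 was the only call open to it. With NanogBiD 2 were higher at D0 than in MEF (Cxcl1 and Cxcl5), against 5.82% of all tested genes, and Cxcl12 was lower, against 5.61%. With NanogWT 4 were higher (Vcam1, Cxcl1, Cxcl5 and Ptgs2), against 3.69%, and Cxcl12 was lower, against 3.15%. Cxcl5 differed by 2.53 with NanogBiD (SE 0.35, limma adjusted p = 1.84e-05) and by 2.42 with NanogWT (adjusted p = 5.27e-05), and Cxcl12 by -2.94 (SE 0.34, adjusted p = 1.68e-06) and -2.65 (adjusted p = 1.13e-05). The MEF libraries differed widely for Ptgs2. Without MEF replicate 1 the NanogWT difference in Ptgs2 went from 1.26 to 0.49 (adjusted p = 0.215), and the Vcam1 difference from 1.03 to 0.94, under the fold limit, which left 3 genes called in all with NanogWT. The Vcam1 difference was also under the fold limit without NanogWT replicate 2 (0.96), with a common total (0.90) and with quantile normalization (0.94). Without NanogWT replicate 2, Ccl2 was called higher (1.45, adjusted p = 0.0106), and without replicate 1 Il6 was called lower (-1.05, adjusted p = 0.0117). Without MEF replicate 2 the NanogBiD comparison called 5 in all, with Ptgs2 (1.59, adjusted p = 0.000114) and Ccl7 (1.18, adjusted p = 0.05) added.

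Markers of other cell types moved with some of these values. The 11 leukocyte markers summed to 5.71 and 11.3 FPKM in MEF, to 103 and 56.8 at D0 with NanogBiD, to 166 and 55.7 at D0 with NanogWT (replicates 1 and 2), and to between 4.77 and 46.1 in the libraries of D1 to D12. NanogWT replicate 1 of D0, with the sum of 166, was also the higher replicate for Ccl2 (48.3 against 15.5 FPKM), Ccl7 (32.2 against 12.2) and Cxcl1 (13.3 against 3.58). Replicate 1 had the higher leukocyte sum in all 15 time-course groups with 2 libraries. Lyz2 had the highest value, 121 FPKM, and 10 of the 11 reached 1 FPKM in some time-course library. The highest values in the gene table were 13.2 FPKM for Cd14, 11.5 for Cd68, 8.07 for Tyrobp, 7.58 for Cd3e, 5.65 for Fcer1g and 2.66 for Csf1r. Cd3e was at 0 in every D0 library, where the sum was highest. The mES library summed to 17.6 FPKM, with Ptprc, Adgre1, Csf1r, Lyz2 and Tyrobp at 0. Ptprc, which marks all leukocytes, reached 1.53 FPKM at most. The 9 endothelial markers summed to 6.96 to 9.90 FPKM at D0 and to 3.80 to 5.63 at D1, where Sele was highest. Among them Cdh5, Tie1 and Emcn stayed under 1 FPKM in every library of the gene table. The other 6, Pecam1, Kdr, Egfl7, Tek, Cldn5 and Vwf, each reached 1 FPKM in some time-course library. The 8 fibroblast markers summed to 5551 and 6549 FPKM in MEF and to 1758 to 2194 over the D0 libraries. On the days when Vcam1, Cxcl12 and Ptgs2 were first called lower they also parted the combinations, at 1128 and 989 FPKM with NanogBiD against 1674 and 1580 with NanogWT at D1 and at 289 and 315 against 675 and 813 at D3. With NanogWT they summed to 654 and 636 at D7, 1570 to 1583 at D8, 2678 and 2752 at D10 and 2851 and 2443 at D12, so that they moved with Vcam1, Ccl2, Ccl7 and Cxcl5. Cxcl12, Ptgs2 and Sele did not move with them there. From D7 to D12 with NanogWT, mean FPKM went from 10.5 to 9.89 for Cxcl12, from 10.3 to 5.06 for Ptgs2 and from 33.0 to 0.290 for Sele. With NanogBiD the fibroblast markers summed to 416 and 269 at D7, 704 at D8, 461 and 380 at D10 and 252 and 393 at D12. The single NanogBiD library of D8 likewise stood above the NanogBiD libraries of D7 and D10 for Ccl2, Ccl7, Cxcl1, Cxcl5 and Cxcl12. For Vcam1, at 1.82 FPKM, it stood below all of them (2.21 to 3.53). For Ptgs2 (0.841) and Sele (0.0595) it stood below the D7 libraries and above those of D10. Within the time course the 9 endothelial markers were highest late with NanogBiD, at 21.0 and 40.9 FPKM at D12, and they summed to 72.3 in mES. At D12 with NanogBiD, Sele was at 0 and Pecam1, also a marker of pluripotent cells, reached 25.6. The 7 pluripotency markers were higher with NanogBiD on the late days. They summed to 90.3 and 83.2 FPKM with NanogBiD against 2.31 and 3.06 with NanogWT at D7, to 953 and 520 against 28.6 and 60.4 at D10, and to 1906 and 990 against 119 and 187 at D12. The part of these cells in the results was not tested.

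In the established iPSC the genes were low or at 0. FPKM there come from a separate transcript table summed by gene, whose depth is unknown and in which Cxcl12 in MEF reads 259 and 108 FPKM instead of 128 and 53.4, so levels are compared only within a table. The NanogWT iPSC are 6 libraries of 5 clones, since library 1-2 of iPSC1 is by its label also clone 1. Per the file headers all iPSC1 libraries were at passage 5 or 6 and all iPSC2 libraries at passage 2, and a difference between lines cannot be told apart from one between passages. In the 5 libraries of line iPSC2 every one of the 10 genes was under 1 FPKM, except Ptgs2 at 3.81 in NanogWT clone 5. The other exceptions were in line iPSC1. Ccl2 stood at 15.6 and 12.2 FPKM in NanogBiD iPSC1 clones 8 and 9 and at 4.93 in NanogWT iPSC1 clone 3, with 0.726 or less in the other 9 libraries. Ccl7 stood at 6.69, 13.1 and 4.32 FPKM in the same libraries and at 1.60 or less elsewhere. Ptgs2 stood at 2.57, 13.2 and 5.57 in them, and Cxcl1 at 4.02 in NanogBiD clone 8 and at 0 in the other 2. These 2 genes were not confined to them within iPSC1. Ptgs2 stood at 2.59 and 1.73 in libraries 1 and 1-2 of NanogWT clone 1 and at 1.19 in NanogBiD clone 4. Cxcl1 stood at 1.10 in library 1-2.

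**Figure D3:**
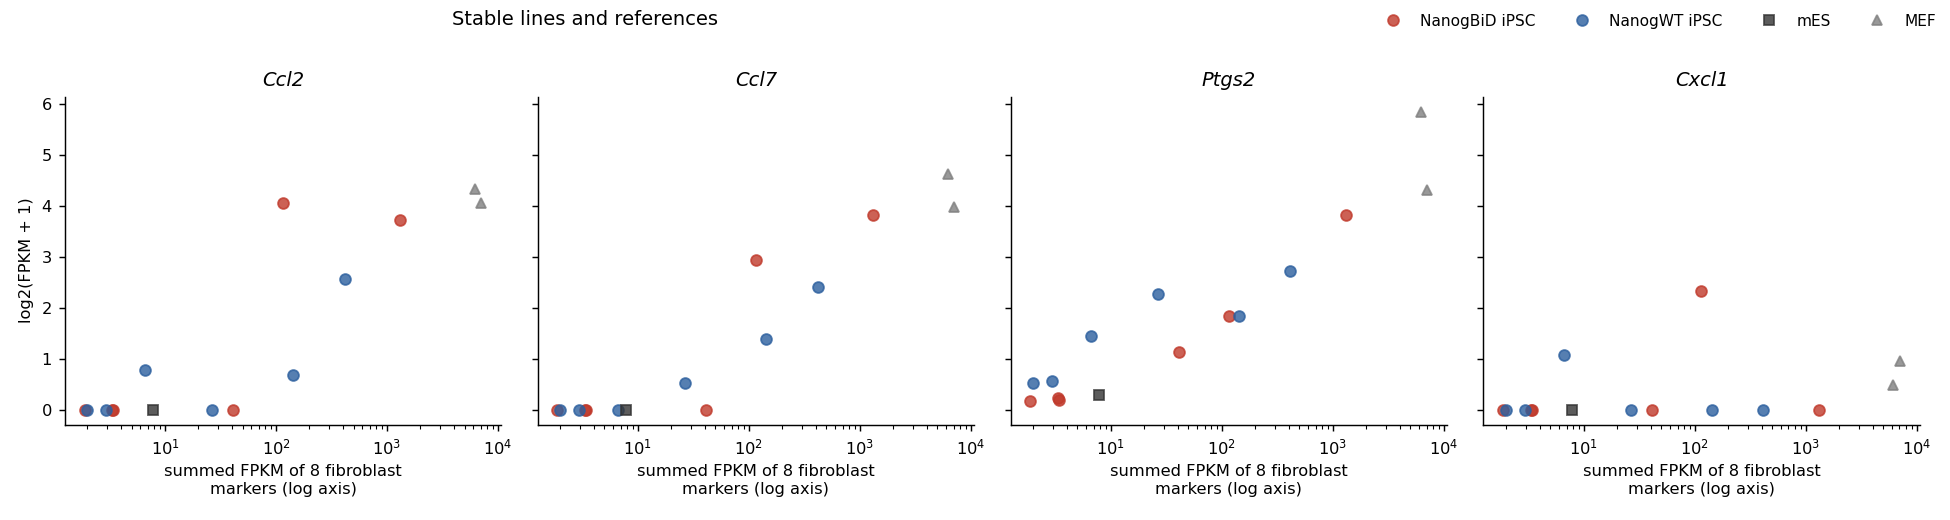
Each panel plots log2(FPKM + 1) of 1 gene against the summed FPKM of 8 fibroblast markers on a log axis, both from the iPSC table. Points are single libraries, red NanogBiD iPSC, blue NanogWT iPSC, the square mES and the triangles MEF. The libraries with Ccl2 over 4 FPKM have marker sums of 115, 415 and 1324 FPKM, against 6184 and 7100 in MEF.

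The fibroblast marker sum was 1324 FPKM in NanogBiD iPSC1 clone 9, 415 in NanogWT clone 3, 143 in library 1 of NanogWT clone 1, 115 in NanogBiD clone 8 and 41.1 or less in the other 8 iPSC libraries. The libraries with Ccl2 over 4 FPKM were all among those with the larger sums, but the values did not follow the order of the sum. Ccl2 stood at 15.6 FPKM in NanogBiD clone 8, 12.2 in NanogBiD clone 9, 4.93 in NanogWT clone 3 and 0.605 in library 1 of NanogWT clone 1. Cxcl1 was at 0 in NanogBiD clone 9 and NanogWT clone 3. The part of fibroblasts in the chemokine values was not tested. Of the 10 genes 4 passed the filter over the iPSC libraries, and limma with line as covariate called 0 of them between NanogBiD and NanogWT iPSC, none with an unadjusted p under 0.05, against 0% of all 12456 genes tested. The differences were 0.93 for Ccl2 (SE 0.66), 0.66 for Ccl7 (SE 0.63), 0.30 for Cxcl1 (SE 0.37) and -0.13 for Ptgs2 (SE 0.53). Against MEF, 8 genes were tested and 7 were called lower in iPSC, against 18.7% of all tested genes. Vcam1, Cxcl5, Cxcl12 and Il6 passed the filter only through the 2 MEF libraries, so lower was the only call open to them. Their part of the count was thus fixed in direction. The log2 differences were -7.10 for Cxcl12 (SE 0.36, limma adjusted p = 7.83e-10), -4.27 for Vcam1, -3.68 for Ptgs2, -3.39 for Ccl7, -3.21 for Ccl2, -1.29 for Cxcl5 and -1.10 for Il6. Without NanogBiD clone 9 the same 7 were called. The Ccl2 call was lost without either MEF library (adjusted p = 0.0651 and 0.0887), the Ccl7 call without MEF replicate 2 (adjusted p = 0.0628) and the Cxcl5 call without MEF replicate 1 (-0.97, under the fold limit). The mES library was at 0 FPKM for Sele, Vcam1, Ccl2, Ccl7, Cxcl1, Cxcl5, Cxcl12 and Il6 in both tables.

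Of the 6 other lists counted, none was picked for how its genes moved in these contrasts, but all were written with earlier results known. Other chemokines (29 genes, 14 tested) had 2 higher and 4 lower with NanogBiD at D7 and 0 higher and 2 lower at D12, beside 5.79% of all tested genes higher and 4.65% lower at D7, and 13.5% higher and 9.97% lower at D12. At D10 they had 0 higher and 2 lower, Ccl8 (-3.79) and Cx3cl1 (-2.68), beside 15.4% of all genes higher and 12.3% lower. These shares are the background of the counts of all 6 lists. Their median log2 difference was -0.43 at D7 and -0.26 at D12, where the median of all genes was 0.079 and 0.17. The monocyte attractant Ccl8 stood at 126 and 167 FPKM with NanogBiD at D7 and at 560 and 639 with NanogWT, and like Sele it rose from D0 to D1 in both combinations (2.28 and 4.05). Cx3cl1, the membrane-bound chemokine fractalkine, was lower at D7 (-3.18, limma adjusted p = 9.02e-06) and rose from D0 to D1 too (2.51 and 3.13), and the B-cell attractant Cxcl13 was higher at D7 (2.56). Ccl8 and Cx3cl1 were the 2 lower at D12 (-4.38 and -2.54). In the 4 steps from D0 to D12, 0 to 3 chemokines of the list rose and 0 to 4 fell per step and combination.

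Receptors and ligands of the 10 genes (22, 14 tested) had 0 higher and 2 lower at D7 and 0 higher and 4 lower at D12, with medians of -0.33 and -0.45, and 1 higher and 6 lower at D10, with a median of -0.76 where that of all genes was 0.097. The prostaglandin receptor Ptger4 was lower at both days (-2.26 and -3.66), as was the chemokine-scavenging receptor Ackr2 at D7 (-2.38), and the VCAM-1-binding integrin chain Itgb1 (-1.79) and the selectin ligand Cd44 (-1.89) at D12. Of the other adhesion genes (15, 12 tested), 3 were higher and 3 lower at D7, among them Jam3 (-1.69), F11r (1.49) and Esam (1.47), and 1 was higher and 2 lower at D12, Podxl (1.97), Alcam (-3.31) and Icam1 (-1.33), with medians of -0.32 and -0.057. At D10 the same 3 were called. Per step and combination 1 to 3 receptor genes rose and 0 to 5 fell, and of the adhesion genes 0 to 4 rose and 0 to 2 fell.

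Genes of NF-kB signalling (28, 27 tested) had 0 higher and 2 lower at D7, the pattern receptors Tlr3 (-1.72) and Tlr4 (-1.16), and 2 higher and 5 lower at D12, led by the tumour necrosis factor receptor Tnfrsf1a (-2.67), the interleukin-1 receptor Il1r1 (-1.81) and the adaptor Myd88 (-1.64), with medians of -0.14 and -0.21. Their count was highest at D10, with 0 higher and 8 lower and a median of -0.52. From D3 to D7 none of them was called in either combination, and at most 2 rose and 5 fell in any other step. Of other cytokines and acute phase genes (18, 9 tested), 0 were higher and 1 lower at D7 (Csf1, -1.23) and 0 higher and 5 lower at D12, among them Il1rn (-3.77), Csf1 (-2.86) and Saa3 (-2.54), with medians of -0.23 and -1.12. At D10 the count was 0 higher and 5 lower. As with Ccl2 and Ccl7, 5 of these 9 rose with NanogWT from D7 to D12, led by Saa3 (4.09) and Il1rn (2.09), and 4 of the 9 (Saa3, Lcn2, Csf1 and Il1rn) rose with NanogWT from D7 to D8. In the other steps at most 1 rose and 2 fell. Prostaglandin enzymes (13, 9 tested), which act with Ptgs2, had 2 higher and 1 lower at D7, Akr1b3 (1.64), Ptgis (1.14) and the arachidonate-releasing phospholipase Pla2g4a (-1.22), and 1 higher and 3 lower at D12, led by Pla2g4a (-3.30), the prostaglandin-degrading Hpgd (-2.87) and Ptgds (-1.54), with medians of 0.44 and -0.013. At D10 it was 2 higher and 3 lower. At most 1 of them rose and 2 fell per step.

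The course of Sele was set beside that of every other tested gene as the Pearson correlation of log2(FPKM + 1) over the 31 time-course libraries, which share tables, days and depth differences, so the values are a description. The 5 likest of 16842 genes were Gm35388, a predicted gene (r = 0.952), Rnf183, a ubiquitin ligase (0.944), Hs3st5, a heparan sulfate sulfotransferase (0.937), Scin, an actin-severing protein (0.936), and Areg, the EGF receptor ligand amphiregulin (0.931). All 5 were at 0.478 FPKM or less in every D0 and MEF library, and they peaked at D1 with NanogWT, Rnf183 at 12.9 and 15.5 FPKM and Scin at 10.9 and 11.6. Their NanogBiD libraries at D1 were lower, at 5.07 and 5.62 for Rnf183 and 5.66 and 6.20 for Scin. Sele also had the highest mean FPKM of the 10 genes over the time course. Among the other 8 tested genes the correlation with Sele was 0.537 for Ccl5, 0.425 for Ptgs2 and between -0.297 and 0.0894 for the rest, so the genes listed with Sele were not those whose course was most like it.

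**Figure D4:**
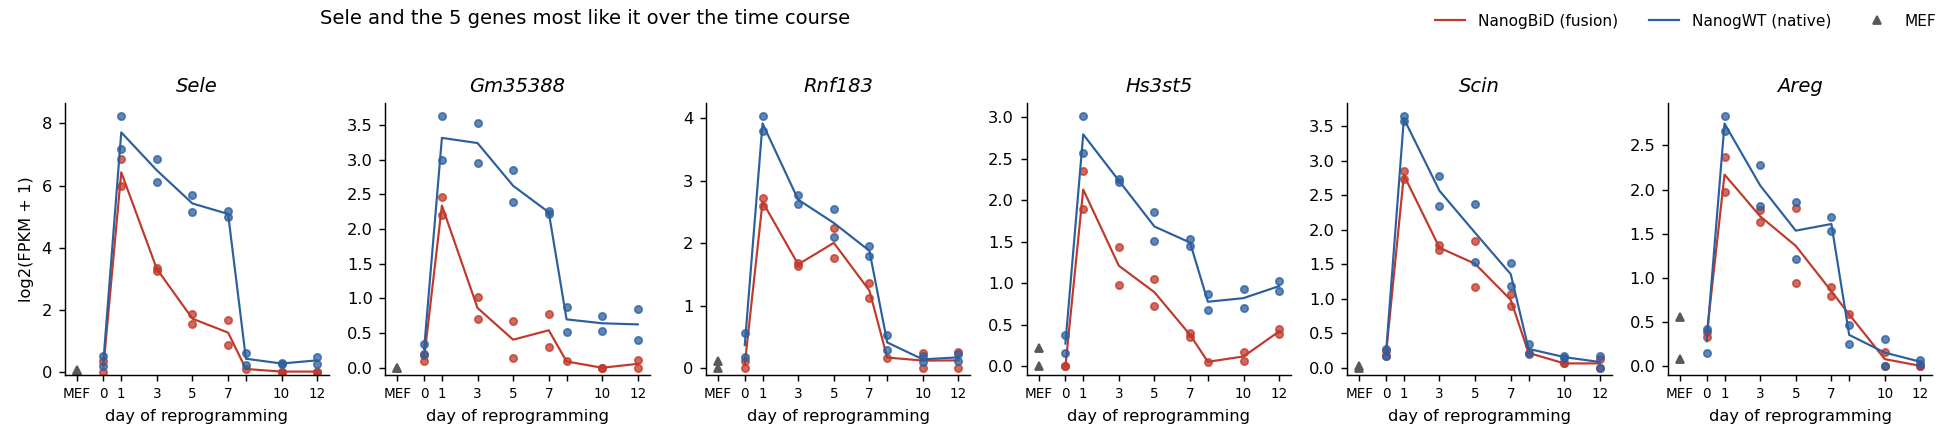
Each panel plots log2(FPKM + 1) against the day of reprogramming for Sele and for the 5 genes with the highest correlation to it. Points are single libraries, lines join group means, red is NanogBiD and blue NanogWT. Each gene peaks at D1 in NanogWT and is lower in NanogBiD on that day.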

How the data were processed

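RNA-seq libraries of 46 samples were analysed: 31 of the time course, 12 of iPSC, 2 of MEF and 1 of mES. According to the methods and the submitters' processing notes, the authors trimmed reads with Trim Galore 0.6.4, mapped them to mm10 with HISAT2 2.2.1 and deposited FPKM from StringTie 2.2.1, as a gene table of 37108 symbols and a transcript table of 106520 transcripts, which was summed here by symbol. The annotation and the strand setting are not given in the sources used here. MEF and mES are in both tables.

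A gene entered a fit when 2 or more of its samples reached 1 FPKM, and was tested on log2(FPKM + 1) with limma 3.58.1 (R 4.3.3; empirical Bayes with a mean trend), so that 16842 genes entered the time-course fit, 16915 the fit with MEF, 12456 that of the iPSC with line as covariate and 13312 that of iPSC and MEF. Each of these fits shares one estimate of the spread over its groups. Benjamini-Hochberg adjustment ran over all genes of a fit, and calls required an adjusted p below 0.05 together with a 2-fold change, 1 on the log2 scale. A pseudocount of 1 understates changes of low genes. No test was run at D5, which chose Sele, nor between the combinations at D8, where NanogBiD has 1 library. The fits were tested on simulated data with known changes.

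Total FPKM were 370030 to 462190 in the time-course libraries. Reads per gene were taken as FPKM over the smallest step of that gene, within 0.1 of a whole number, and relative depth came from genes of low FPKM. Limits from reads cover counting error only. Python 3.11.15, pandas 2.3.3, numpy 2.4.6 and matplotlib 3.10.9 were used for the rest. Gene IDs, coordinates and promoter windows were from RefSeq, GRCm38.p6. All 10 genes are named. Of the other lists, up to 3 called genes with the largest difference at D7 and 3 at D12 and up to 2 per step are named, and the 5 genes most correlated with Sele. Besides these, the text names Ccl8, Cx3cl1, Podxl, Alcam and Icam1 for D10. It also names Saa3, Lcn2, Csf1 and Il1rn for the step from D7 to D8. The members and lists were chosen with earlier results of these data known. The alternatives were a pseudocount of 0.1, no filter, rescaling to a common total, quantile normalization, the replicate number as a block, a fit to the compared groups alone, leaving out each library, and for the iPSC no line covariate and samples of 1 clone averaged. The step from D7 to D8 was added after the values were seen.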

Additional observations from a re-analysis of the deposited data

Results flagged for a closer look

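In the 6 iPSC libraries of each combination, 1 library stood far above the others for most of the 10 genes: its gap to the next library was over 0.625 of the range of the group (Dixon's criterion for 6 values) in 14 of the 19 gene and combination groups tested. For a single well-behaved group chance gives this in about 1 of 20, and here most values of a group are at or near 0, where the criterion is met by any 1 value above them. In NanogBiD iPSC the high library was iPSC1 clone 9 for Ptgs2 (13.2 FPKM), Cxcl12 (2.16 FPKM) and Vcam1 (1.17 FPKM), iPSC1 clone 8 for Cxcl1 (4.02 FPKM), Ccl5 (1.19 FPKM) and Cxcl5 (0.264 FPKM), and iPSC2 clone 1 for Sele (0.0208 FPKM). In NanogWT iPSC it was iPSC1 clone 3 for Ccl2 (4.93 FPKM), Ccl7 (4.32 FPKM) and Cxcl12 (0.461 FPKM), library 1-2 of iPSC1 clone 1 for Cxcl1 (1.10 FPKM) and Cxcl5 (0.547 FPKM), the other library of clone 1 for Il6 (0.343 FPKM) and iPSC2 clone 5 for Sele (0.563 FPKM). The fibroblast markers of these libraries are given with the iPSC results, and their part was not tested.

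The change since D0 differed between the combinations by the limma interaction, always lower with NanogBiD. At D7 the difference in change was -3.64 for Sele, -2.96 for Ccl7, -1.71 for Ptgs2 and -1.43 for Cxcl12 (log2). At D12 it was -5.02 for Ccl7, -3.44 for Ccl2, -2.42 for Vcam1, -2.28 for Cxcl5, -2.01 for Cxcl12 and -1.84 for Ptgs2.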

How the results depend on the processing

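No difference of the 10 genes changed sign with its call under any alternative run: of 1886 recomputed values, 1771 kept their side of the threshold, 76 were called in the reported fit only and 39 in the alternative only. The counts below are genes called in either direction. In the fit to the compared groups alone, which has fewer residual degrees of freedom, they were 0 between the combinations at D1 and at D3, 0 for NanogWT from D0 to D1, 0 for NanogBiD and 1 for NanogWT from D1 to D3, 0 for both combinations from D3 to D7, 1 for NanogBiD D0 against MEF and 0 for NanogWT D0 against MEF. From D3 to D7 the pseudocount of 0.1 gave 4 for NanogBiD and 0 for NanogWT, and rescaling to a common total gave 0 for NanogWT. Causes were not tested.

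Leaving out each library in turn gave, between the combinations, 0 genes at D0, 1 to 3 at D1, 4 at D3, 4 to 5 at D7 and 6 to 7 at D10 and D12. For NanogBiD it gave 6 to 7 from D0 to D1, 3 from D1 to D3, 2 to 3 from D3 to D7 and 1 to 2 from D7 to D12. For NanogWT it gave 4 to 6 from D0 to D1, 3 to 4 from D1 to D3, 0 to 1 from D3 to D7, 4 to 6 from D7 to D12 and 3 to 4 from D7 to D8. The interactions ranged from 3 to 5 at D7 and from 6 to 7 at D12, D0 against MEF from 3 to 5 with NanogBiD and from 3 to 6 with NanogWT, and iPSC against MEF from 5 to 7. Calls gained by leaving out a library were of Vcam1, Ccl2, Ccl7, Cxcl1, Cxcl12, Il6 and Ptgs2. A lone remaining library was assumed to vary like the other groups.

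The labels do not say what same-numbered libraries of the combinations share. Their deviations correlated at -0.0647 to 0.395 per day over 16842 genes, above 0.1 on D0, D1, D7 and D10, and leukocyte markers were higher in replicate 1 of all 15 groups. What the number marks was not given in the sources used here. With the replicate block the counts were those reported except 7 in place of 6 for the interaction at D12, where Cxcl1 was added, and 172 of 173 values kept their side. For iPSC, dropping the line covariate or averaging samples of 1 clone still gave 0. Read numbers limit Ccl5, Il6 and late Sele, and the depth of the iPSC table is unknown.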
